A study of Mus musculus with 1376 samples.

Results

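Solute carriers are a large superfamily of membrane transporters, and the account here follows those that were detected widely in single cells of the mouse lung. The members were chosen by a detection rule: the symbol had to have the form Slc, a family number, the letter a and a member number, and the gene had to have a count above 0 in at least 10% of 1376 cells. Of the carriers with such a symbol in a table of 46517 genes, 41.6% met the rule. By role, the members are 29 of 67 amino acid and peptide carriers, 27 of 47 mitochondrial carriers, 21 of 32 metal ion carriers, 16 of 39 carriers of protons, chloride and bicarbonate, 11 of 33 of carboxylates, sulfate and phosphate, and 10 of 32 of sugars. The rest are 7 of 12 carriers of nucleosides and nucleotide sugars, 6 of 34 of organic ions, 6 of 18 of vitamins, choline and heme, 3 of 6 of fatty acids, 2 of 8 of sodium, calcium and potassium, and 1 of 6 others. Among protein-coding genes, 10093 of 21547 (46.8%) reached the same share of cells. The members span 39 families, and every member passed the filter on low sums. The last members inside the rule were Slc12a8 with a count in 10.2% of cells, Slc25a45 with 10.3%, Slc26a1 with 10.4%, and Slc17a9 and Slc25a32 with 10.6% each. The nearest carriers outside it were Slc25a33 and Slc8a1 with 9.96% each, Slc22a8 with 9.74%, Slc46a1 with 9.59% and Slc41a2 with 9.45%.

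Solute carriers move ions, nutrients and metabolites across membranes, as exchangers, as cotransporters that draw on a sodium or proton gradient, or as uniporters that follow the gradient of the solute itself. The family numbers group proteins by sequence, and the substrates often follow the family, with exceptions. Most carriers of family Slc25 sit in the inner membrane of mitochondria, though Slc25a17 is peroxisomal and Slc25a46 lies in the outer membrane. Others sit in the plasma membrane, in lysosomes or in the Golgi. Known roles include glucose uptake into muscle and fat under insulin (Slc2a4), clearing of neurotransmitters (Slc1a3, Slc6a2) and iron handling (Slc11a1, Slc40a1).

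The cells came from dissociated lungs of 3 mice of the strain ACTA2GFP:CSPG4dsRED, whose name gives reporters for smooth muscle actin and for the proteoglycan NG2, and no treatment is labelled. A first male gave 47.5% of the cells on 2 plates, a second male 25.6% on a single plate, and a female 26.96% on another. Values of the mice are given in that order throughout (male 1, male 2, female). Mouse and plate therefore cannot be told apart for male 2, and mouse, plate and sex cannot for the female. The labels give an age of 8 to 30 weeks, while the series text gives one of 8 to 21 weeks and male mice only, and the extract protocol names heart where the tissue label says lung. Cells of a class in 1 mouse share their source, so classes were compared over mice, each with a sum of counts per class. How cells were gated for sorting was not found in these sources. Reads of cDNA were counted without molecular identifiers, at 50835 to 1074103 counts per cell (median 230688). The sums per class and mouse held 2413919 to 77057610 counts. Mitochondrial genes took 0.466% to 0.613% of the counts of the median cell in the classes of the female and 1.24% to 2.50% in those of the males.

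Cells were grouped without any gene whose symbol starts with Slc, and each group was named after the type whose marker genes it carried, with -like added. There were 6 classes with at least 10 cells in every mouse. Vascular smooth muscle (SMC)-like cells made up 33.5% of all cells, with 48 in the female. The others were airway SMC-like (43, 15 and 27 cells), pericyte-like (16, 12 and 82), alveolar fibroblast-like (63, 67 and 40), alveolar myofibroblast-like (26, 39 and 38) and adventitial fibroblast-like cells (11, 15 and 37). Marker sums overlapped between the muscle classes, whose marker lists both hold Acta2, Myh11, Tagln and Cnn1. The overlap of the sums therefore does not measure how well these classes separate. Levels are in CPM (read counts scaled to a common library size). Levels of members in the 6 classes use edgeR's TMM factors unless stated. Marker sums, levels over all cells and levels in cells outside these classes are CPM without those factors. Markers of vascular SMC summed to 18028 to 23574 CPM in vascular and 12553 to 19376 CPM in airway SMC-like cells. Markers of airway SMC summed to 18869 to 26532 CPM in airway and 17866 to 23053 CPM in vascular SMC-like cells. Those of alveolar fibroblasts summed to 6511 to 8685 CPM in alveolar fibroblast-like and 1467 to 2548 CPM in vascular SMC-like cells. Adventitial fibroblast-like cells had more of these markers, with 3350, 5292 and 2728 CPM. The part of this overlap in the levels of members was not tested. The clusters inside some classes followed the mouse. Of the 48 vascular SMC-like cells of the female, 39 lay in a cluster of 42 cells. Of its 40 alveolar fibroblast-like cells, 35 lay in a cluster of 35 cells with none from the males. Of the pericyte-like cells, 63 (49 of the female) lay in a cluster with weaker pericyte markers. Their mean marker score, in SDs across clusters, was 0.872 for pericytes and 0.45 for vascular SMC. The other 47 scored 1.973 for pericytes. Markers of pericytes summed to 13625 to 20213 CPM in pericyte-like cells, and those of vascular SMC to 6394 to 11508 CPM. Another 66 endothelial-like cells of the female, 40 macrophage-like cells of male 1 and all cells left unnamed entered no test.

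Promoters of 4 members that stood out between classes are shown first, since no sequence was used to choose them. Each run is the 300 bases from 250 before to 50 after a RefSeq gene start (GRCm38.p6), printed 5′ to 3′ on the strand of the gene, with every E-box (CANNTG, which reads the same on both strands) in capitals. Slc38a5 lies at chrX:8271131-8271430 (plus strand), Slc27a3 at chr3:90389889-90390188 (minus), Slc1a3 at chr15:8710758-8711057 (minus) and Slc11a1 at chr1:74374953-74375252 (plus). The first 3 were high in alveolar fibroblast-like cells and the last in vascular SMC-like cells and pericyte-like cells. For Slc38a5 the annotations disagree. The gene position given below, from GENCODE, starts near the first base of the window, so nearly all of the window lies inside that gene.
Slc38a5: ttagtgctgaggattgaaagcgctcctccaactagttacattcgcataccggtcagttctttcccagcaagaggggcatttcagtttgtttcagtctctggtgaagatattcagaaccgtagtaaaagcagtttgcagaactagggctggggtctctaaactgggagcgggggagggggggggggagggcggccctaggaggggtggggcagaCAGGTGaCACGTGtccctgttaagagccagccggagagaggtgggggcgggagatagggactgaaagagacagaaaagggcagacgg
Slc27a3: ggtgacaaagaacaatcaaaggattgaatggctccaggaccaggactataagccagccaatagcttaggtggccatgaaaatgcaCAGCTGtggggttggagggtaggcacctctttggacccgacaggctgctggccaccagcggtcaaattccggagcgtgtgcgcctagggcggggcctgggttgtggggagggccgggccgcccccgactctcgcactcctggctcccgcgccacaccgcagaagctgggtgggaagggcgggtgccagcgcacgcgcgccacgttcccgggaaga
Slc1a3: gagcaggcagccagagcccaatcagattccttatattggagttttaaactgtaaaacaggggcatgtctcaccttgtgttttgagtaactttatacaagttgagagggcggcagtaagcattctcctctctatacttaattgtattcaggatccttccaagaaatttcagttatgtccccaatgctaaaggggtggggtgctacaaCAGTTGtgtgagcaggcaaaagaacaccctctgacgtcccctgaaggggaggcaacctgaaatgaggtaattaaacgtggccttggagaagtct
Slc11a1: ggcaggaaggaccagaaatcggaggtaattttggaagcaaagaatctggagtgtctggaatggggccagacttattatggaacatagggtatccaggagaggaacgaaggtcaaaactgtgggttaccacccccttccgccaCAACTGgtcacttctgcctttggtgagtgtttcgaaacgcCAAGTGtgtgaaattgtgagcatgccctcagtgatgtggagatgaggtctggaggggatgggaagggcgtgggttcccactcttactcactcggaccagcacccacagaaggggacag

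The windows of Slc38a5 and Slc11a1 each held 2 E-boxes, and those of Slc27a3 and Slc1a3 held 1 each. An E-box was found in 72.3% of all 32851 promoter windows of this length and in 71.8% of the members' windows with a RefSeq match. The GC box GGGCGG (either strand) occurred 3 times in the Slc27a3 window, 2 times in that of Slc38a5, 1 time in that of Slc1a3 and not in that of Slc11a1. It was present in 69.7% of the members' windows, against 35.7% of all windows and 45.9% of those of carriers below the rule. The median window of the members had 18 CpG dinucleotides, against 7 over all windows and 8 for the carriers below the rule. Among the members, the 22 windows of 11 genes that differed between classes had a median of 11 CpGs, and the 120 windows of the other 91 genes one of 18.5. Windows of the same gene share sequence, so these are descriptions. A match is not a bound site, and no match says only that the letters are not in that window.

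In the median cell, 44 of the members had a count (range 10 to 88) and together they held 0.912% of its counts. With each cell thinned to 50000 counts the median cell showed 30 of them. Per class and mouse, the thinned median ran from 23 in pericyte-like cells of male 1 to 41 in alveolar fibroblast-like cells of both males. Alveolar fibroblast-like cells had 40.5 in the female, so their 3 values lay above all 15 of the other class and mouse values, which reached 38 in adventitial fibroblast-like cells of the female. Counts per exon kilobase rank the members against each other. The highest over all cells was Slc25a4, which exchanges ADP for ATP across the inner mitochondrial membrane, at 206.4 CPM per kb. Slc48a1, a heme transporter, followed at 132.3, and the zinc transporter Slc39a7 at 101.7. Slc25a5, another ADP/ATP carrier, had 101.05 CPM per kb, and the nucleoside transporter Slc29a1 had 98.6. Slc25a3, which brings phosphate into mitochondria, had 86.2, the sugar transporter Slc50a1 had 77.8 and Slc3a2, the heavy chain of several amino acid exchangers, had 73.3. Slc43a3 and the oxoglutarate carrier Slc25a11 closed the first 10 with 70.7 and 66.1. The exons of Slc39a7 share 80.7% of their bases with Gm20427 on the same strand, and Slc25a4 and Slc25a5 are close paralogs, so their levels are uncertain. Of all members, 33.8% shared some exon bases with another gene and 12 members more than 10%.

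The class means of most members differed by less than 4 times. The ratio of the highest to the lowest class mean had a median of 3.54 over the members and lay below 4 for 76 of them, while 21 passed 20. An F test over the 6 classes called 18 members, or 12.9%, against a background of 11.2% of all 16154 genes tested. It was edgeR's quasi-likelihood test with mouse as block, and calls had a Benjamini-Hochberg adjusted p under 0.05. Of the background genes, 8332 were tested over the same 6 classes. The others were tested in a second clustering, without a pericyte-like class, so the background mixes 2 unlike tests. The share among the carriers was near this mixed background. At an unadjusted p under 0.05 there were 36. By role, 8 of 29 amino acid and peptide carriers, 3 of 21 metal ion carriers, 1 of 10 sugar carriers and 2 of 6 carriers of vitamins, choline and heme were called. Only 1 of 27 mitochondrial carriers was called, and 0 of 16 carriers of protons, chloride and bicarbonate, 2 of which had an unadjusted p under 0.05. The differences between role groups were not tested. Roles follow the family number, so a few members sit apart from their own substrate (the vitamin transporter Slc5a6 counts with the sugar family Slc5). The called amino acid and peptide carriers include Slc43a3, known for purine nucleobases, and Slc6a2, which takes up noradrenaline. A member found in few cells passes the detection rule more readily if a common class holds it. Without the cells of their highest class, 11 members would fall below the rule, and none of these 11 was among the 18.

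**Figure D1:**
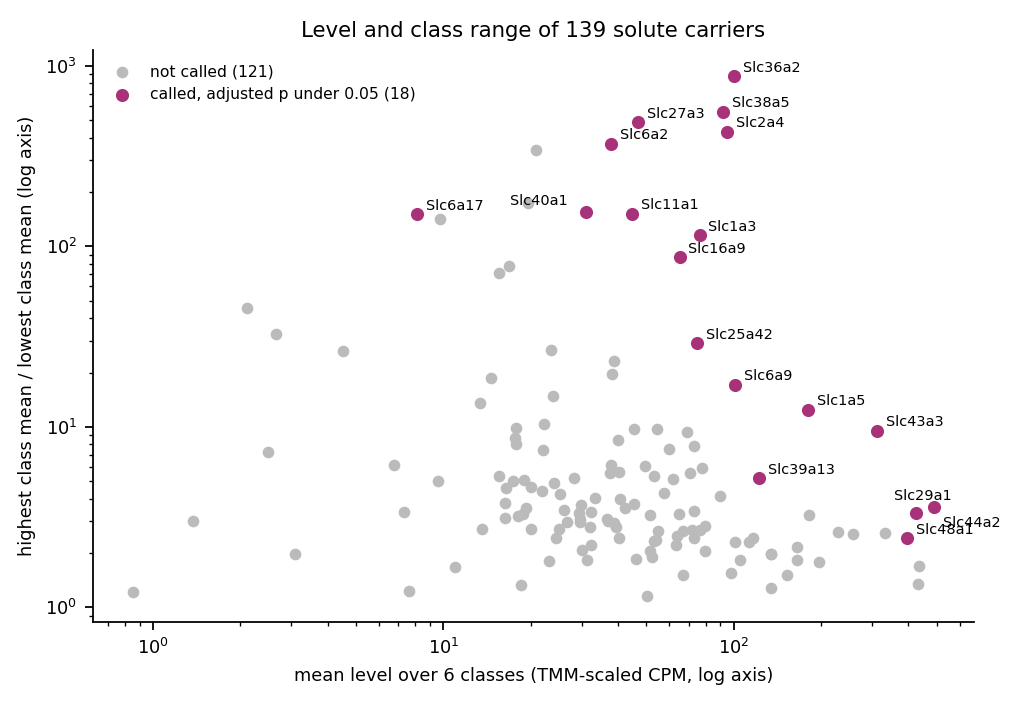
Each point is a member, placed by its mean level over 6 classes (x, TMM-scaled CPM, log axis) and by the ratio of its highest to its lowest class mean (y, log axis). The 18 called members are named: most lie above a ratio of 5, while Slc44a2, Slc29a1 and Slc48a1 are called at ratios of 3.59, 3.32 and 2.41.

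Among the abundant members, levels of the mitochondrial carriers Slc25a3 and Slc25a4 stayed close. Slc25a3 ran from 367.8 ± 42.2 CPM in adventitial fibroblast-like cells to 496.7 ± 134.6 in airway SMC-like cells (mean ± SD, n = 3 mice, here and below), and its adjusted p was 0.873 in the same test. Slc25a4 ran from 357.8 ± 32.4 CPM in adventitial fibroblast-like cells to 609.3 ± 53.5 in vascular SMC-like cells, with an adjusted p of 0.0763. Other mitochondrial carriers differed more without a call. Log2 fold changes in this group ran from -5.42 to 1.61 in the fibroblast classes over the muscle and mural classes. For pericyte-like over vascular SMC-like cells they ran from -5.14 to 0.86. Slc25a42, which carries coenzyme A into mitochondria, was the only member of its group called in the F test. Its levels in alveolar myofibroblast-like cells were 166.5, 290.5 and 308.1 CPM, and the next class mean was 76.2 ± 67.5 in airway SMC-like cells. Every myofibroblast value lay above every value of the other classes, the highest of which was 150.8 in airway SMC-like cells of male 2 (F test, adjusted p = 0.0123). The call was lost when any of the mice was left out and with male 1 from either plate alone.

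The comparison of fibroblast with muscle and mural classes asked which carriers set alveolar fibroblast-like and myofibroblast-like cells apart from vascular SMC-like, airway SMC-like and pericyte-like cells. In the fibroblast classes 9 members (6.47%) were higher, against 3.95% of 8332 genes tested, and 4 (2.88%) were lower, against 1.97%. The median log2 fold change was 0.29 over the members and 0.06 over all genes. Of the amino acid and peptide carriers, 5 of 29 rose and 2 fell. Those that rose include Slc43a3 and Slc6a2, which are in this group by family and not by their known substrate. Of the metal carriers, 2 of 21 rose and 1 fell. Of the 27 mitochondrial carriers none was called, with 4 at an unadjusted p under 0.05.

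**Figure D2:**
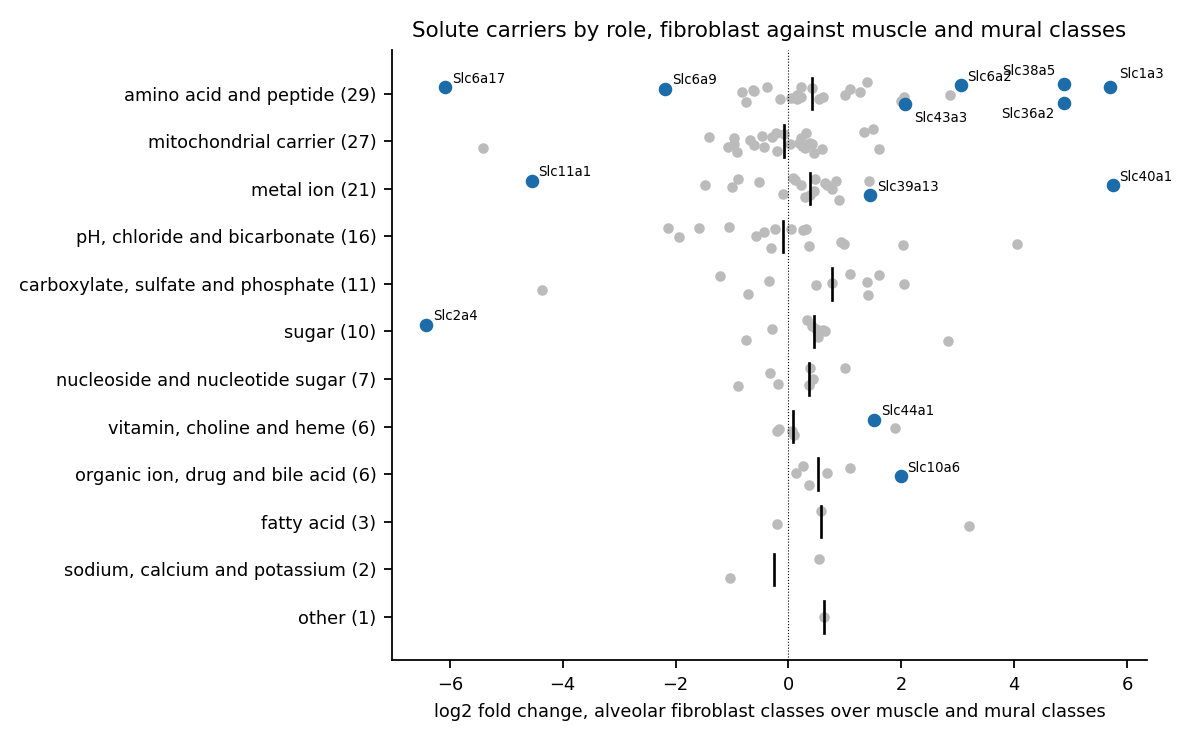
Each point is a member's log2 fold change in the alveolar fibroblast classes over the muscle and mural classes (x), by role group (y, number of members in brackets). Blue points are the 13 called members, black bars are group medians, and the vertical jitter has no meaning. The called amino acid carriers reach from -6.08 (Slc6a17) to 5.70 (Slc1a3).

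Slc36a2 and Slc38a5, both amino acid carriers, had the smallest adjusted p among the members in the F test over the 6 classes, at 1.95e-06 each. Gene positions are those of GRCm38 in GENCODE M21. Slc36a2 (ENSMUSG00000020264, chr11:55158470-55185077, minus strand) encodes a proton-coupled transporter of glycine, alanine and proline. Its levels in alveolar fibroblast-like cells were 440.7, 388.1 and 544.9 CPM. In alveolar myofibroblast-like cells they were 0.797, 0.493 and 1.61 CPM, from 6, 4 and 15 counts. The 3 muscle and mural classes had at most 1.68 CPM in any mouse, and pericyte-like cells of both males had no count. Adventitial fibroblast-like cells lay between, with 50.9, 254.1 and 112.1 CPM. Slc36a2 was thus found in both fibroblast classes that are not myofibroblasts, and no alveolar fibroblast value overlapped another class. It was 4.88 ± 0.54 higher on the log2 scale (± SE) in the fibroblast classes than in the muscle and mural classes (adjusted p = 4.62e-05). The groups of this comparison overlapped. Myofibroblast-like values lay within the muscle and mural range, and only alveolar fibroblast-like values lay above it.

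Slc38a5 (ENSMUSG00000031170, chrX:8271133-8280179, plus strand) encodes a sodium-coupled transporter of glutamine and other neutral amino acids. It had 320.55, 354.1 and 527.8 CPM in alveolar fibroblast-like cells. Its myofibroblast levels were 0.664, 3.33 and 2.58 CPM, and its adventitial fibroblast levels were 38.9, 252.1 and 139.2 CPM. The levels in muscle and mural classes did not pass 4.70 CPM. As for Slc36a2, alveolar fibroblast-like cells stood above all others and adventitial fibroblast-like cells came next. The log2 fold change in the fibroblast classes was 4.88 ± 0.49 (adjusted p = 1.88e-05). Here too the groups overlapped, since no myofibroblast-like value passed the highest muscle or mural level.

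The same pair led the comparison of alveolar myofibroblast-like with alveolar fibroblast-like cells. In it, 5 members (3.60%) were lower in myofibroblast-like cells, against 1.39% of 16154 genes tested, and 0 were higher, against 0.898%. Of all members 12 had an unadjusted p under 0.05, and DESeq2 called 1 higher and 7 lower. The median log2 fold change was -0.04 over the members and -0.08 over all genes. Slc36a2 fell by 9.02 ± 1.02 on the log2 scale (adjusted p = 0.000162) and Slc38a5 fell by 7.96 ± 0.91 (adjusted p = 0.000187). Both calls held without each of the mice and in all 17 alternatives. With so few counts on the low side, the size of these fitted folds depends on the prior count of the fit.

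The other 3 lower members were Slc27a3, Slc1a5 and Slc43a3. Slc27a3 (ENSMUSG00000027932, chr3:90385239-90389938, minus strand) belongs to the fatty acid transport proteins, which also activate fatty acids with coenzyme A. It had 70.7, 64.9 and 236.5 CPM in alveolar fibroblast-like cells and 195.8, 41.05 and 209.03 CPM in adventitial fibroblast-like cells. In alveolar myofibroblast-like cells it had no count in the males and 18 counts (1.93 CPM) in the female. The groups did not overlap, and the fitted log2 fold change was -9.52 ± 1.79 (adjusted p = 0.00978). The call was lost without male 1, without male 2 and with no replicate block. Across the fibroblast and muscle classes Slc27a3 was not called (adjusted p = 0.0529).

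Slc1a5 (ENSMUSG00000001918, chr7:16781340-16798274, plus strand) encodes a sodium-dependent exchanger that brings in glutamine. It had 249.9, 278.99 and 422.97 CPM in alveolar fibroblast-like cells and 45.8, 33.8 and 7.74 CPM in myofibroblast-like cells, a log2 difference of -3.25 ± 0.68 (adjusted p = 0.0194). It also fell from vascular SMC-like cells (194.1, 217.97 and 312.99 CPM) to airway SMC-like cells (26.7, 40.3 and 42.4 CPM). There the log2 difference was -2.72 ± 0.66 (adjusted p = 0.0468). Neither pair of groups overlapped, and both calls were lost when any of the mice was left out and with male 1 from either plate alone. The myofibroblast call was also lost in a fit of the compared classes only. The airway call was lost in 10 of 17 alternatives, which also include relative log expression factors, no replicate block, classes from all variable genes, finer clusters and the strict cell filter.

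Slc43a3 (ENSMUSG00000027074, chr2:84936579-84958509, plus strand) is grouped with the amino acid carriers by family and is known as a transporter of purine nucleobases. It was present in every class and differed in amount. Alveolar fibroblast-like cells had 689, 865 and 778 CPM and myofibroblast-like cells 184.3, 295.7 and 147.1. Vascular SMC-like cells had 88.1, 149.4 and 102.7 CPM, airway SMC-like cells 79.4, 100.7 and 64.3, and pericyte-like cells 53.1, 160.8 and 95.2. The fibroblast classes were 2.06 ± 0.18 higher on the log2 scale than the muscle and mural classes (adjusted p = 4.51e-06), and the only overlap was of myofibroblast-like values with vascular SMC-like and pericyte-like values. The myofibroblast difference of -1.94 ± 0.29 (adjusted p = 0.00149) was lost without the female, with classes from the other gene part, with the strict cell filter and with 15 neighbours. The 66 endothelial-like cells of the female had more, at 1389 CPM. Summed over 8 endothelial markers, alveolar fibroblast-like cells had 28.8 to 92.7 CPM and endothelial-like cells 13257, with no marker at 0 in the former.

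Slc1a3 (ENSMUSG00000005360, chr15:8634124-8710764, minus strand) is the glutamate and aspartate transporter best known from astrocytes. It had 191.1, 311.6 and 287.3 CPM in alveolar fibroblast-like cells and 76.9, 172.6 and 42.2 in myofibroblast-like cells. Vascular SMC-like cells had 2.41, 0.704 and 3.90 CPM. Airway SMC-like cells varied from 0.672 in male 2 to 62.98 in the female, which overlapped the myofibroblast range. The log2 fold change in the fibroblast classes was 5.70 ± 0.78 (adjusted p = 0.000303), and the call held without each of the mice.

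Slc6a2 (ENSMUSG00000055368, chr8:92960079-93001667, plus strand), which takes noradrenaline back up into sympathetic nerve endings, had an unlike pattern. It had 81.5, 10.4 and 127.2 CPM in airway SMC-like cells and 0.222, 0.132 and 0.342 CPM in vascular SMC-like cells. The vascular values came from 19, 3 and 5 counts, and no airway value overlapped a vascular one. In alveolar fibroblast-like cells it had 59.1, 18.4 and 99.7 CPM and in adventitial fibroblast-like cells 31.5, 165.9 and 61.2. Few cells carried most of these counts: in airway SMC-like cells 12 of 43, 3 of 15 and 11 of 27 had a count, and 1 cell held 60.8%, 51.6% and 56.7% of the class's counts. The airway difference was 7.93 ± 1.58 (adjusted p = 0.0159) and the fibroblast difference 3.05 ± 0.83 (adjusted p = 0.0432), and both were lost when any of the mice was left out. The airway call was also lost with coarser clusters and the fibroblast call with classes from all variable genes. In the fibroblast comparison the groups overlapped: the airway values span those of alveolar fibroblast-like cells, and myofibroblast-like cells had 0.266, 0.370 and 24.6 CPM and pericyte-like cells 0.390, 0 and 0.811. Endothelial-like cells had 249.9 CPM of Slc6a2, and the airway SMC-like sums held 34.5 to 107.8 CPM over 8 endothelial markers (Cdh5 and Emcn at 0 in male 1), whose part in the result was not tested.

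**Figure D3:**
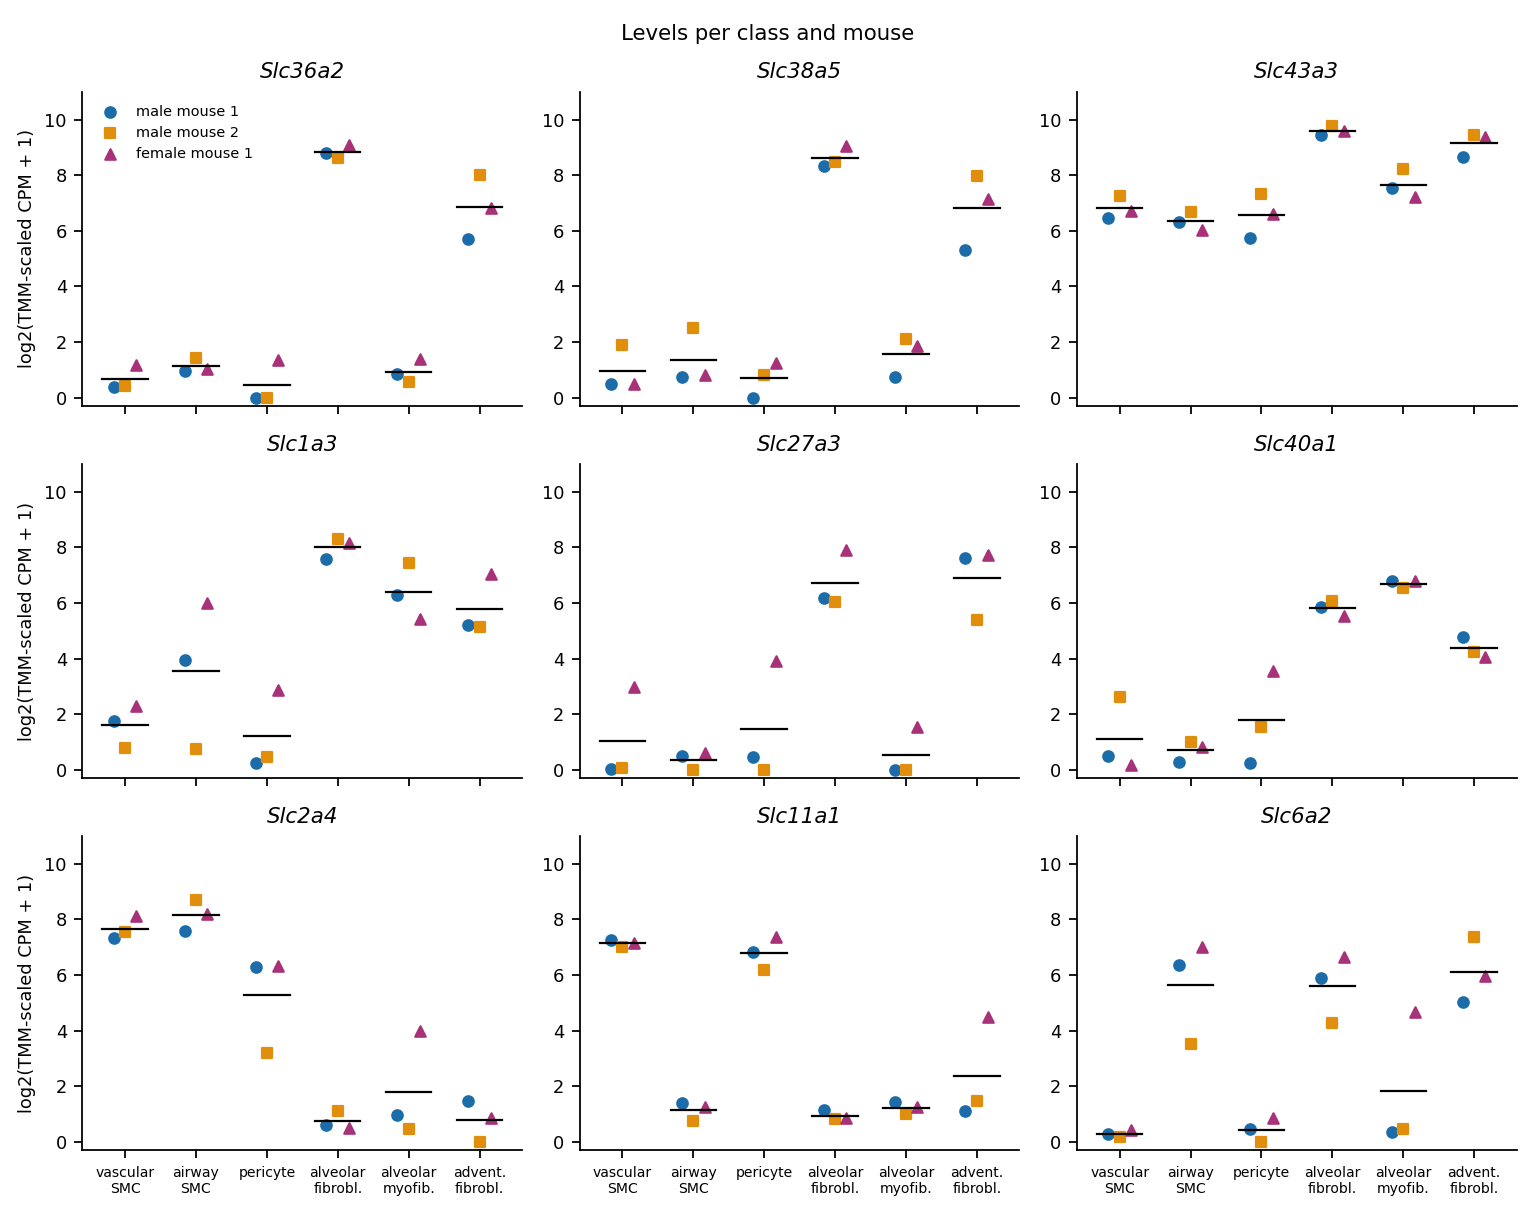
Levels of 9 members as log2(TMM-scaled CPM + 1) (y) in 6 classes (x); symbols are the 3 mice and bars the mean of the 3 log values. Slc36a2 and Slc38a5 stay below 3 on this scale outside alveolar and adventitial fibroblast-like cells, while Slc2a4 and Slc11a1 are high in muscle or mural classes and low in fibroblasts.

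Among the metal carriers, the iron transporters Slc40a1 and Slc11a1 were called in opposite directions. Slc40a1 (ENSMUSG00000025993, chr1:45908068-45926523, minus strand) is ferroportin, which exports iron from cells. It had 57.1, 66.1 and 45.3 CPM in alveolar fibroblast-like cells and 108.8, 90.8 and 108.6 CPM in myofibroblast-like cells. Vascular SMC-like cells had 0.398, 5.19 and 0.137 CPM, and the highest mural value was 10.6 in pericyte-like cells of the female. The groups did not overlap, and the log2 fold change was 5.74 ± 0.86 (adjusted p = 0.000689), kept without each of the mice. The myofibroblast sums rested on few cells: 3 of 26, 12 of 39 and 12 of 38 had a count, and in male 1 a single cell held 86.1% of the counts. Macrophage-like cells, a type known for ferroportin, had 34.8 CPM.

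Slc11a1 (ENSMUSG00000026177, chr1:74375195-74386062, plus strand), also called Nramp1, moves iron and manganese out of the phagosomes of macrophages. It had 151.2, 127.3 and 142.1 CPM in vascular SMC-like cells and 112.2, 71.3 and 163.03 CPM in pericyte-like cells. Airway SMC-like cells had 1.61, 0.672 and 1.41 CPM, and alveolar fibroblast-like and myofibroblast-like cells at most 1.73 CPM in any mouse. Vascular and airway muscle thus differed with no overlap, by -6.91 ± 0.98 for airway over vascular (adjusted p = 0.00151), a call lost without male 2 (adjusted p = 0.0662). In the fibroblast classes the log2 fold change was -4.54 ± 0.60 (adjusted p = 0.000237), kept without each of the mice. The airway SMC-like values did not pass the highest fibroblast value, so the groups of that comparison overlapped. The signal was spread over cells: 71.9%, 66.9% and 77.1% of vascular SMC-like cells had a count, and the cell with most held 3.69%, 4.29% and 8.87% of the counts. Macrophage-like cells had 317.96 CPM of Slc11a1 and 20825 CPM over 8 macrophage markers. Vascular SMC-like cells had 14.3 to 44.3 CPM over the same markers, with 2 markers at 0 in the female and none in the males, and alveolar fibroblast-like cells had 60.9 to 90.5 CPM. The sums were 23.4 to 52.6 CPM in pericyte-like, 6.70 to 46.1 CPM in airway SMC-like and 7.67 to 33.3 CPM in myofibroblast-like cells, with 0 to 5 of the 8 markers at 0. Their part in the result was not tested.

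Slc39a13, a zinc transporter, was higher in the fibroblast classes by 1.45 ± 0.32 (adjusted p = 0.0127). It had 109.7, 169.7 and 229.3 CPM in alveolar fibroblast-like cells and 64.8, 70.8 and 57.3 CPM in vascular SMC-like cells. The largest mural value, 117.4 in pericyte-like cells of the female, overlapped the fibroblast range. The call was lost without male 2 and without the female.

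Slc2a4 (ENSMUSG00000018566, chr11:69942539-69948188, minus strand) is the insulin-responsive glucose transporter of muscle and fat, and the only sugar carrier called. It had 158.9, 184.3 and 276.9 CPM in vascular SMC-like cells and 190.6, 416.7 and 293.2 CPM in airway SMC-like cells. Pericyte-like cells had 77.1, 8.10 and 79.02 CPM. Alveolar fibroblast-like cells had 0.518, 1.15 and 0.414 CPM. Myofibroblast-like cells had 0.930, 0.370 and 14.9 CPM, and in the female 1 cell held 94.2% of the counts behind the last value, which overlapped the pericyte range. The log2 fold change in the fibroblast classes was -6.41 ± 0.89 (adjusted p = 0.000353), kept without each of the mice. The difference between vascular and airway SMC-like cells did not pass the test (adjusted p = 0.943).

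A pair of Slc6 members was also lower in the fibroblast classes. Slc6a9, a glycine transporter, had 100.6, 177.8 and 268.9 CPM in vascular SMC-like cells and 143.4, 167.8 and 446.3 CPM in pericyte-like cells. It had 19.3, 38.4 and 54.9 CPM in alveolar fibroblast-like cells, a log2 fold change over the fibroblast classes of -2.18 ± 0.53 (adjusted p = 0.0222). Airway SMC-like cells had only 14.1, 4.70 and 73.3 CPM, so the muscle and fibroblast ranges overlapped. Its exons share 27.8% of their bases with Ccdc24 on the other strand, and the counting is not stated to use strand, so the level is uncertain. Slc6a17, a vesicular amino acid transporter of neurons, had 33.5, 14.6 and 7.81 CPM in vascular SMC-like cells and at most 0.537 CPM in any alveolar fibroblast-like or myofibroblast-like sum (log2 fold change -6.08 ± 1.09, adjusted p = 0.0031). Male 2 had 0.336 CPM in airway SMC-like and 0.386 in pericyte-like cells, so these groups overlapped too. The calls of Slc6a9 and Slc6a17 were lost without male 1 and without the female, and that of Slc6a9 also with no replicate block.

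The remaining called members of this comparison were Slc10a6 and Slc44a1. Slc10a6, a transporter of sulfated steroids, had 128.9, 105.9 and 149.7 CPM in alveolar fibroblast-like cells and 33.5, 28.1 and 13.5 CPM in vascular SMC-like cells (1.99 ± 0.47, adjusted p = 0.0175; lost without male 1, without male 2 and with male 1 from plate 046s alone). Slc44a1, a choline transporter, had 102.2, 130.9 and 73.4 CPM against 21.8, 28.2 and 14.2 in the same classes (1.52 ± 0.41, adjusted p = 0.0406). This call was lost in 8 of 13 alternatives: when any of the mice was left out, with no low-count filter, on thinned counts, with classes from all variable genes, with finer clusters and with the strict cell filter. No alveolar fibroblast-like or myofibroblast-like value of Slc10a6 overlapped a muscle or mural value, while adventitial fibroblast-like cells, which are not in this comparison, had 7.66, 19.8 and 61.97 CPM. Airway SMC-like cells overlapped the fibroblast range for Slc44a1, with 46.7 to 84.03 CPM.

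Airway against vascular SMC-like cells asked whether the muscle of airways and vessels differs in its carriers. Higher in airway cells were 2 members (1.44%), against 1.16% of all genes tested, and lower 2 (1.44%), against 0.966%. The lower members, Slc11a1 and Slc1a5, and the higher Slc6a2 are described above. The other higher one was Slc3a2 (ENSMUSG00000010095, chr19:8706882-8723369, minus strand), with 433.9, 329.7 and 341.2 CPM in airway SMC-like cells and 161.9, 88.5 and 173.6 CPM in vascular SMC-like cells. The groups did not overlap, and the difference of 1.42 ± 0.35 (adjusted p = 0.0479) was lost in 9 of 17 alternatives: when any of the mice was left out, with no low-count filter, with no replicate block, with classes from the other gene part, with male 1 from either plate alone and in a fit of the compared classes only. The median log2 fold change was -0.24 over the members and -0.18 over all genes.

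Pericyte-like against vascular SMC-like cells gave 1 member (0.719%) higher, against 1.64% of 8332 genes tested, and 0 lower, against 1.55%. For this comparison 17 members had an unadjusted p under 0.05, and DESeq2 called 1 higher and 7 lower. The called gene was Slc16a9 (ENSMUSG00000037762, chr10:70245100-70285968, plus strand), of the monocarboxylate transporter family, with 11.9, 37.5 and 18.7 CPM per kb in pericyte-like cells and 0.740, 0.523 and 0.177 CPM per kb in vascular SMC-like cells. The groups did not overlap (5.24 ± 1.26, adjusted p = 0.0342), but the call was lost in 7 of 13 alternatives: when any of the mice was left out, with classes from all variable genes, with finer clusters, with male 1 from plate 046s alone and in a fit of the compared classes only. Its exons share 12.7% of their bases with Gm7097 on the other strand. In pericyte-like cells of male 1, a single cell held 75.4% of its counts. Alveolar fibroblast-like cells had 28.9, 27.5 and 33 CPM per kb, inside the pericyte range. The highest class mean of Slc16a9 was in adventitial fibroblast-like cells, at 86.9 times the lowest, in vascular SMC-like cells. Pericyte-like sums held 12.2 to 83.8 CPM over the 8 endothelial markers (Cdh5, Emcn and Tie1 at 0 in male 1, Kdr in male 2). The 66 endothelial-like cells had 197.4 CPM of Slc16a9, a value not divided by exon length, unlike the levels per kb above. For scale, Slc16a9 had 42.9 CPM over all cells, which is 11.1 CPM per kb. The part of endothelial cells in the result was not tested.

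The 3 most even of the called members were carriers that nearly every class expresses. Slc44a2, a choline transporter-like protein, had 372.3 ± 101.3 CPM in alveolar fibroblast-like cells, 640.5 ± 30.0 in myofibroblast-like cells and 186.8 ± 55.9 in adventitial fibroblast-like cells (F test, adjusted p = 0.000493, kept without each of the mice but not with male 1 from either of its plates alone). The adventitial values of 157.8, 151.4 and 251.2 CPM all lay below those of every other class, while the highest class mean lay in a muscle or mural class. Slc48a1 was highest in adventitial fibroblast-like cells at 665 ± 92.6 CPM and lowest in airway SMC-like cells at 275.8 ± 23.5 (adjusted p = 0.0155). Slc29a1 ran from 210.2 ± 44.5 CPM in pericyte-like cells to 698 ± 192.8 in adventitial fibroblast-like cells (adjusted p = 0.0268). The last 2 calls were lost when any of the mice was left out, with male 1 from either plate alone and without the adventitial class, and that of Slc29a1 also with classes from the other gene part, with coarser clusters and with 15 neighbours. Slc44a2 and Slc25a42 fall outside the rule for named genes and were chosen after their values were seen.

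With each cell thinned to 50000 counts, Slc36a2 had a count in 77.1% of alveolar fibroblast-like cells, 25.4% of adventitial and 2.82% to 5.88% of the other classes. Slc38a5 was found in 70.6% of alveolar and 30.2% of adventitial fibroblast-like cells. Slc2a4 was found in 41% of vascular and 49.4% of airway SMC-like cells and in 1.76% of alveolar fibroblast-like cells. Slc11a1 was found in 61.6% of vascular SMC-like and 42.7% of pericyte-like cells and in 9.41% of airway SMC-like cells. Unthinned, the last 3 shares were 70.7%, 60% and 29.4%. Over all members and classes, the median share was 16.5% thinned and 26.98% unthinned.

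**Figure D4:**
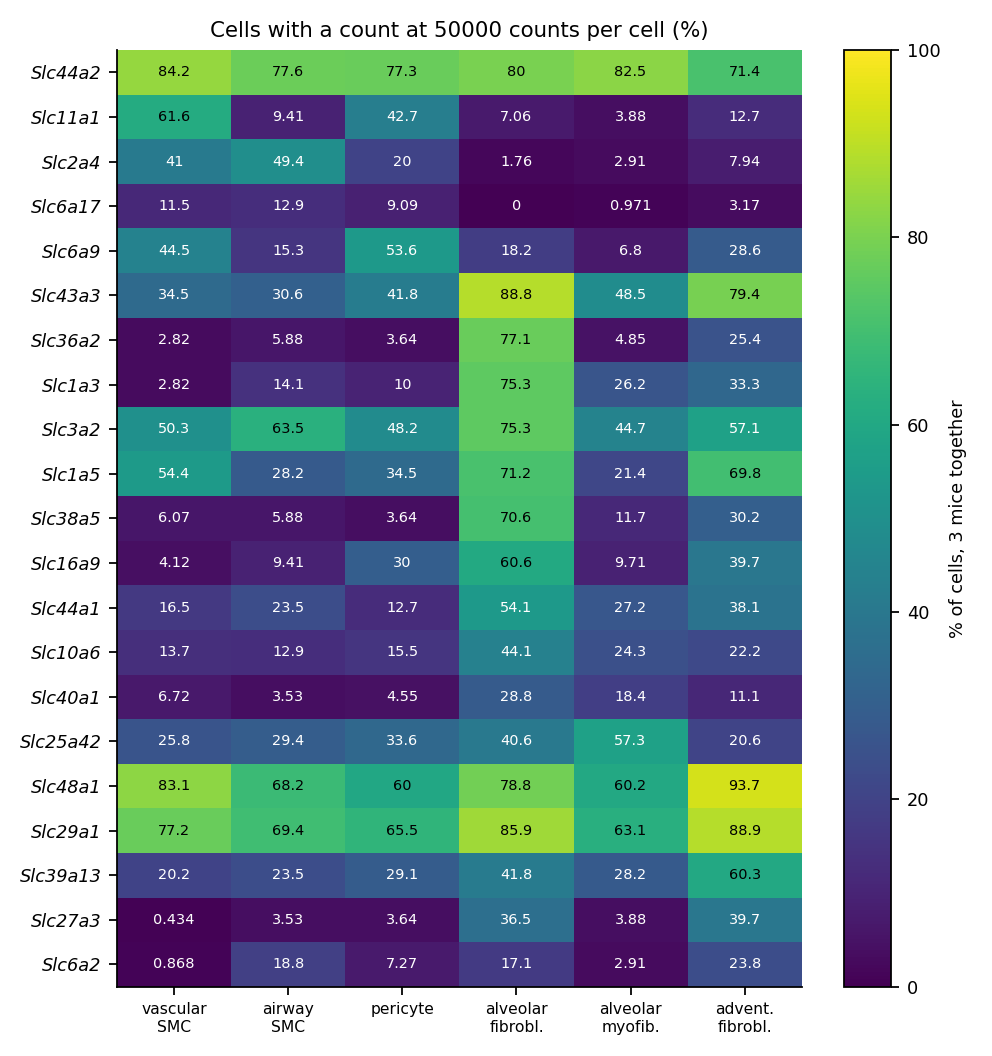
Percent of cells with a count after each cell was thinned to 50000 counts, for the 21 members called in any test (rows) in 6 classes (columns), cells of the 3 mice pooled. Slc43a3, Slc44a2, Slc48a1 and Slc29a1 are found in many cells of every class, and Slc36a2, Slc38a5 and Slc27a3 mainly in alveolar and adventitial fibroblast-like cells.

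Families with 3 or more members are each led by the member with most counts. The 19 leaders include Slc1a5, Slc2a4, Slc16a9 and Slc43a3, which were called. Leaders that were not called include Slc6a6, a taurine transporter found in 965 cells (25.8 CPM per kb), Slc38a2, a neutral amino acid transporter found in 980 cells (21.2 CPM per kb), Slc12a4, a potassium and chloride cotransporter found in 705 cells (36 CPM per kb), and Slc7a2, a transporter of arginine and lysine found in 701 cells (11.6 CPM per kb). Slc7a2 had a ratio of 9.42 between its highest class mean, in vascular SMC-like cells, and its lowest, in adventitial fibroblast-like cells (adjusted p = 0.311).

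Other transport genes were read from 4 lists. Of 34 partners and regulators of solute carriers, 7 were called in the F test over classes. So were 5 of 20 ion-pumping ATPases and their subunits, 6 of 24 ABC transporters and 2 of 16 aquaporins and organic anion polypeptides. Only 21, 10, 12 and 10 genes of these lists were tested over all 6 classes. The rest were tested in the other clustering, without a pericyte-like class. These are 20.6%, 25%, 25% and 12.5% of the lists, against 11.2% of all genes tested, and the lists' differences from other genes were not tested. Airway against vascular SMC-like cells gave Tfrc, the transferrin receptor, at -8.35 ± 1.73 (adjusted p = 0.019) and Fxyd6, a regulator of the sodium pump, at 5.34 ± 0.55 (adjusted p = 0.000283). In the fibroblast classes Trpv2, a cation channel, was lower (-4.65 ± 0.86, adjusted p = 0.00379), and so was Atp1b2, a sodium pump subunit (-2.04 ± 0.53, adjusted p = 0.0335). Slco5a1 (7.84 ± 1.48, adjusted p = 0.00603) and Slco2b1 (3.53 ± 0.79, adjusted p = 0.0134), organic anion transporters, were higher there. Abca8b, an ABC transporter, was lower in myofibroblast-like than in alveolar fibroblast-like cells (-6.72 ± 1.16, adjusted p = 0.00526), and Txnip, which draws glucose transporters from the membrane, was higher (1.31 ± 0.26, adjusted p = 0.0131). Of 72 tested carriers below the detection rule, 10 (13.9%) were called over the 6 classes, a share near the 11.2% of all genes tested.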

How the data were processed

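Smart-Seq2 libraries of 1376 lung cells (653 of male mouse 1, plates 045s and 046s; 352 of male mouse 2, plate 131s; 371 of female mouse 1, plate 505s) were read as raw counts per gene and cell, as deposited by the authors. Tools and builds listed in the submitters' processing notes are featureCounts, Subread, Bowtie, Bowtie2 and bcl2fastq, with GRCm38 and mm10, and no versions or settings. No unused value columns were present (0). Symbols and exons came from GENCODE M21. Of 334 carriers by symbol, 305 had a count and 139 reached 138 cells (99 with a count above 1, 103 on counts thinned to 50000 per cell). Promoter windows of 102 members (142 windows) came from the RefSeq table of GRCm38.p6.

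All genes with symbols starting with Slc were left out of clustering (Leiden, 12 neighbours, 30 components), and the other genes were split at random into 2 parts. One clustering gave the classes in which the carriers and the part not used were tested, the other those for the remaining genes. Of 12 combinations of neighbours and components run, the one kept let the pericyte-like class reach 10 cells in each mouse; gene selection was also changed 1 time and naming thresholds were set after clusters were seen. Pericyte-like cells did not reach 10 per mouse in the other clustering, so the pericyte and fibroblast-against-muscle comparisons were adjusted over 8332 genes. The F test of genes tested in the other clustering covered the remaining classes only. The plan named 5 classes, and adventitial fibroblast-like cells were added because they too had 10 cells per mouse. Vascular SMC-like cells numbered 256, 157 and 48 in the 3 mice, and 276 cells stayed unnamed.

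Counts were summed per class and mouse (18 sums) and fitted with edgeR 4.0.16 in R 4.3.3 (TMM factors, filterByExpr, quasi-likelihood test, two-sided, Benjamini-Hochberg over all genes tested, call at adjusted p under 0.05), with the mouse as a block because every class comes from the same 3 animals. SE is the log2 fold change divided by the root of F. DESeq2 1.42.0 was an alternative, as were other classes, filters, scalings, plates and each mouse left out. The scripts were tested on simulated data. Named members are the called ones of each comparison (up to 10 per direction), the 10 with most counts per kb, 5 on each side of the rule, and the leader of each family with 3 or more members; from 4 lists of other transport genes, up to 3 called per comparison by adjusted p. Members, lists and markers were chosen with earlier results of these data known. Doublets were not called. Counting intervals are not given, since reads are not independent molecules.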

Additional observations from a re-analysis of the deposited data

Results flagged for a closer look

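Of the cells that entered no comparison, the 66 endothelial-like cells of the female and the 40 macrophage-like cells of male 1 held 7 members at a level at least 2 times the highest of the 18 class and mouse sums, with a count in at least 25% of the cells. This rule was chosen after the data were seen, each kind of cell comes from 1 mouse, and no test was made. Levels are CPM without TMM factors. Slc3a2, the heavy chain of amino acid exchangers, had 1220 CPM in endothelial-like cells (66 of 66 with a count), 2.69 times the highest class value of 453.5. Slc34a2, a phosphate transporter known from alveolar type II cells, had 40.17 CPM in endothelial-like cells (20 of 66), against 14.7 at most. The same cells held 404.9 CPM over 8 epithelial markers, against at most 123.04 CPM in the 18 class and mouse sums; the part of epithelial RNA was not tested. In macrophage-like cells Slc9a9, an endosomal sodium and proton exchanger, had 370.3 CPM (27 of 40), against 116.3. Slc7a7, the partner of Slc3a2 for export of cationic amino acids, had 104.9 CPM (16 of 40), against 51.5, and Slc38a6 had 67.2 CPM (23 of 40), against 20.9. The mitochondrial carriers Slc25a10 and Slc25a45 had 177.2 CPM (18 of 40) and 143.4 CPM (17 of 40), against 78.5 and 47.9.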

How the results depend on the processing

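Counts of called members moved by more than 1.5 times mainly with the test and with the mice used. DESeq2 called 40 members over the 6 classes (18 with edgeR, all shared), 25 in the fibroblast classes against muscle and mural classes (13), 8 in myofibroblast-like against alveolar fibroblast-like cells (5) and 8 for pericyte-like over vascular SMC-like cells (1). Over all genes DESeq2 also called more, 3561 against 1817, where part of the genes was tested without a pericyte-like class. With each mouse left out in turn, 7 to 13 members were called over the 6 classes, 8 to 9 in the fibroblast comparison, 3 in every case for myofibroblast-like cells, 0 to 1 between airway and vascular SMC-like cells (4) and 0 for pericyte-like cells. Between airway and vascular SMC-like cells, the fit with no replicate block called 2, and male 1 from plate 046s alone called 2. Without the replicate block, 18 members were called over the 6 classes and 12 in the fibroblast comparison. For pericyte-like cells, counts thinned per cell gave 5, finer clusters 0, and a fit of these classes alone 0. The share of cells with a count had a median of 16.5% on thinned and 26.98% on whole counts. Of 23 single calls, 9 held without each mouse and in every alternative run: Slc36a2 and Slc38a5 in both their comparisons and Slc1a3, Slc2a4, Slc11a1, Slc40a1 and Slc43a3 in the fibroblast comparison. No value changed sign. With relative log expression factors in place of TMM, the median log2 fold change of all genes moved from -0.26 to -0.097 for pericyte-like cells, and 1 member was still called. The comparisons with pericyte-like cells were not run for classes from the other gene part, for coarser clusters, for plate 045s alone or with 15 neighbours, where that class did not reach 10 cells per mouse. The fits with 15 neighbours and with the 5 planned classes were chosen after seeing the data. With 3 mice, and 10 to 16 cells in some sums, single cells can carry a level, as given for Slc6a2, Slc16a9, Slc2a4 and Slc40a1; the cause of lost calls was not tested.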
